A study of Mus musculus with 28 samples.

Results

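A set of 7 genes of the fluid-secreting machinery of the choroid plexus were followed through 28 RNA-seq libraries of mouse lateral ventricle choroid plexus. They were given as a list of symbols: the 3 sodium pump beta subunits Atp1b1, Atp1b2 and Atp1b3, the pump regulator Fxyd1, the water channel Aqp1, the potassium channel Kcnj13 and the chloride intracellular channel family member Clic6. All 7 were found by Entrez identifier among the 27179 identifiers counted, and all 7 had enough counts to be tested in both age groups. Each library came from 1 male mouse, with 4 libraries in each of 7 groups. Young wild-type C57/BL6 mice of 3 to 4 months were sampled in the light phase at ZT6 (6 hours after lights-on), at ZT6 after 6 hours of sleep disruption, or in the dark phase at ZT18. Mice of 12 to 14 months were either J20+ or their wild-type littermates, and each genotype was sampled at ZT6 and at ZT18. J20+ mice carry a transgene for mutant human amyloid precursor protein under the PDGF-B promoter, which drives it mainly in neurons, and the wild-type littermates lack it. The groups are called young day, young sleep-disrupted, young night, aged wild-type day and night, and J20+ day and night. Young libraries were batch 1 and aged libraries batch 2 of the labels, so age and batch cannot be told apart and the ages were scaled and tested separately.

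The choroid plexus is a vascular fold covered by a single layer of epithelial cells that secretes most cerebrospinal fluid. The sodium-potassium pump sits in the apical membrane of this epithelium, where it exports sodium toward the ventricle. Each pump holds a catalytic alpha subunit and a beta subunit needed for its folding and delivery, and FXYD proteins bind the pump and tune its affinity for ions. Aquaporin 1 lets water follow the ions across the apical membrane, and Kir7.1, the product of Kcnj13, returns potassium that the pump brings in. Levels are set beside 26 markers of choroid epithelium such as Ttr, the thyroid hormone carrier, and Folr1, the folate receptor.

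The sequence before the start site is shown for 3 genes whose night and day values differed unlike each other in aged wild-type mice, where none passed the test: Aqp1, with the largest difference, Kcnj13, with a small one, and Fxyd1, with one in the other direction. In J20+ mice the order was another, with Fxyd1 largest and Kcnj13 in the same direction as Fxyd1. None passed in J20+ mice either, and the Fxyd1 value there was smaller without J20+ night library 2. Scaled to the epithelial markers, Kcnj13 went with Fxyd1 in aged wild-type mice too, at log2 fold changes of 0.43 and 1.11. The runs are RefSeq sequence of GRCm38.p6, 250 bases long, on the strand of the gene and ending at the base before an annotated transcript start. Capitals mark the motifs found on either strand. GGGCGG is the GC box read by Sp1-type factors. TATAAA is the core that positions transcription at many regulated promoters. CCAAT is the box bound by NF-Y.

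Aqp1, chr6:55336049-55336298, plus strand: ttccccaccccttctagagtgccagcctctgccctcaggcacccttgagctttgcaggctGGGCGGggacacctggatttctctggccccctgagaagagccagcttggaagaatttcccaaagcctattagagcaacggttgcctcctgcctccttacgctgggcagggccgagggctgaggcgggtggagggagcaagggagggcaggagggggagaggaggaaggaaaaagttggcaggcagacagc

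Kcnj13, chr1:87394730-87394979, minus strand: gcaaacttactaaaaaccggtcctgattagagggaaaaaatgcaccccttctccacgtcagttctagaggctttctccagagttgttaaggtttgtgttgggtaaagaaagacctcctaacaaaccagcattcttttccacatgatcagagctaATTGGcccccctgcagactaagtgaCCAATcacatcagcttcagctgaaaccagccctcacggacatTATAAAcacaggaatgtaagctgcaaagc

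Fxyd1, chr7:31054854-31055103, minus strand: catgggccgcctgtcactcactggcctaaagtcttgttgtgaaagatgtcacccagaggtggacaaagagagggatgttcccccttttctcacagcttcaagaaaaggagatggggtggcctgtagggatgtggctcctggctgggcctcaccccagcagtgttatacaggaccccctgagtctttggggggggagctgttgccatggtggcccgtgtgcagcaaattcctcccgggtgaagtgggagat

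The Kcnj13 run held TATAAA beginning 29 bases before the start, and CCAAT beginning 71 bases (gene strand) and 96 bases (other strand) before it. Of 32851 mouse promoters of the same length, 12.4% held TATAAA and 33.9% held CCAAT. The Aqp1 run held 1 GGGCGG, 190 bases before the start, which 32.7% of promoters held. The Fxyd1 run held none of these letters, and it lies inside the span of the gene because it belongs to an inner transcript start. CACGTG, the E-box read by the circadian clock proteins CLOCK and BMAL1, stood in 6.02% of promoters. In the members with an entry it was found only in 1 of the 2 Atp1b3 promoters, 221 bases before the start. TAATCC, the core letters of the choroid plexus factor OTX2, and AGGTCA, a half-site of ROR receptors, stood in 6.25% and 14.0% of promoters and in none of these runs. No letters outside these windows were searched.

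Total counts per library ran from 22466931 to 28982168 in young mice and from 14632089 to 43885898 in aged mice. Levels are CPM, counts brought to a common library size with TMM scaling (trimmed mean of M values), and log2 levels add a prior count of 2. The epithelial score is the mean log2 CPM of the 26 markers, all of which were detected in every library. It ran from 9.17 to 9.44 in the 12 young libraries. In the aged libraries it was 9.82 ± 0.18 (SD, n = 4) in wild-type day, 9.13 ± 0.27 in wild-type night, 9.74 ± 0.36 in J20+ day and 9.69 ± 0.57 in J20+ night. Summed over the list, the markers gave 50695 to 64924 CPM in aged wild-type day and 30028 to 43008 CPM in aged wild-type night, with no overlap. A score over 31 markers of neurons, astrocytes and oligodendrocytes was 3.43 ± 1.52 in aged wild-type day and 6.11 ± 1.20 in aged wild-type night. Summed, these neural markers gave 854 to 4068 CPM by day and 1902 to 9378 CPM at night, and 1 of the 31 was at 0 in 1 day library at most. Young libraries lay between 341 and 857 CPM for the same sum. J20+ night library 2 stood apart from the other 3 of its group, with an epithelial score of 8.84 against 9.94 to 10.05 and a neural score of 5.25 against 1.74 to 3.61. J20+ day library 1 likewise had an epithelial score of 9.21 against 9.86 to 10.02. In tissue RNA, fewer epithelial cells in a sample and less RNA of a gene per cell cannot be told apart.

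**Figure D1:**
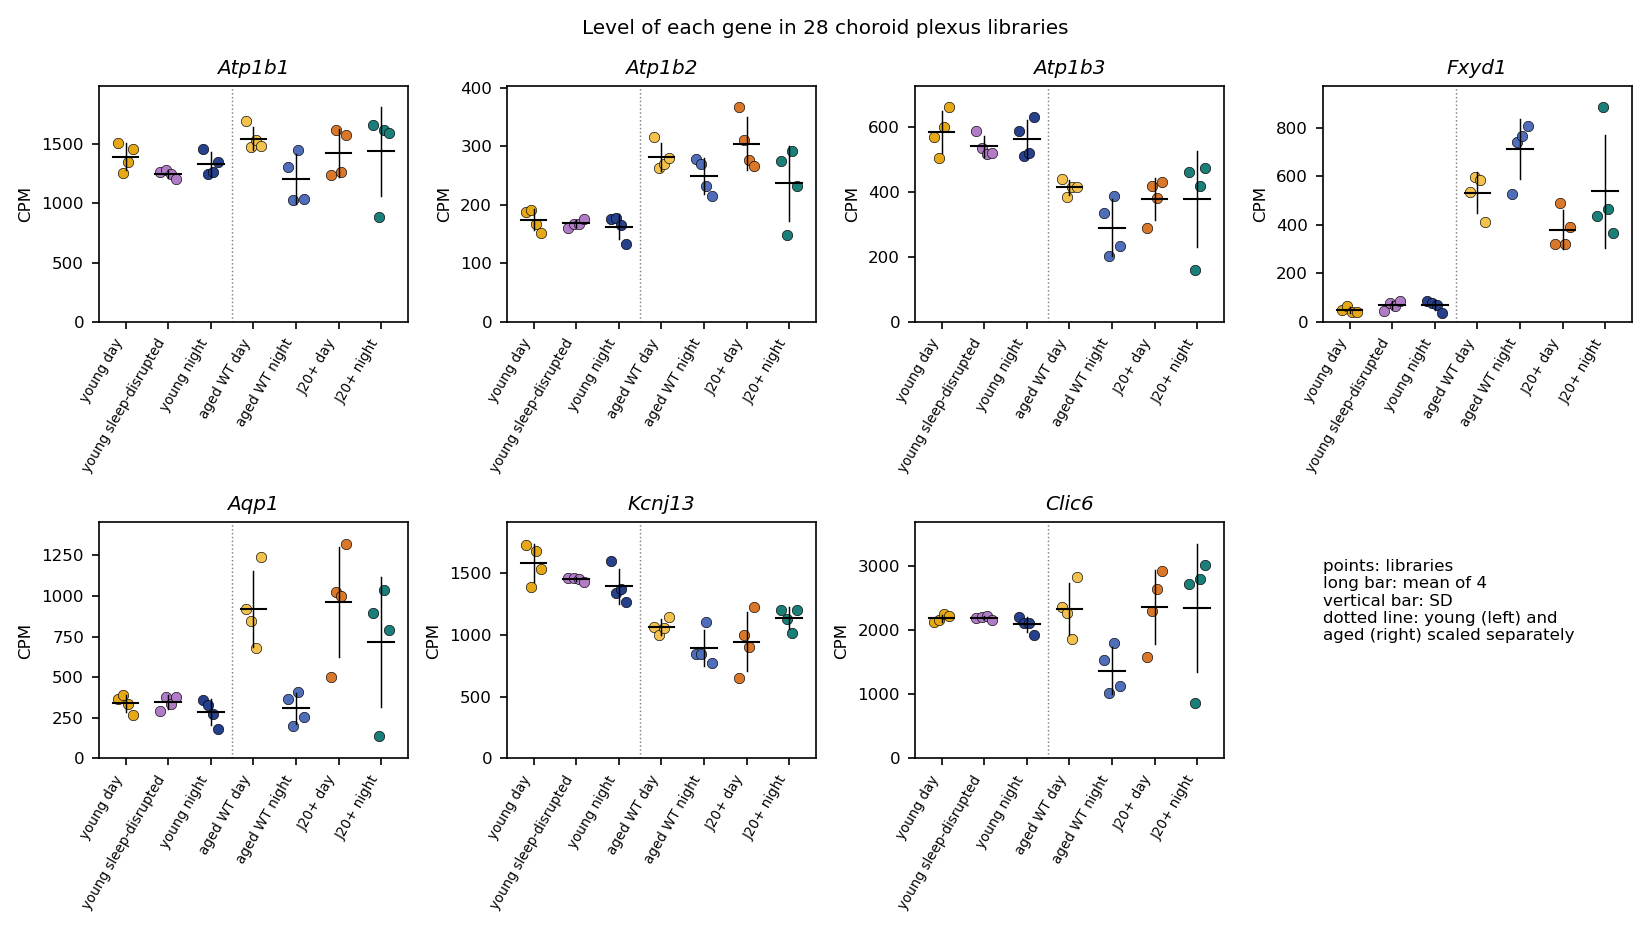
CPM of the 7 genes in each of 28 libraries (points), with the mean (long bar) and SD (vertical bar) of the 4 libraries of a group. Young groups stand left of the dotted line and aged groups right of it, and the 2 sides were scaled separately. Aqp1 in aged wild-type mice lies between 680.1 and 1238 by day and between 198 and 411 at night, and 1 J20+ night library lies at 139.

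Levels of different genes are compared per kilobase of the longest coding transcript in GENCODE M21 (RPKM), since longer transcripts gather more reads. In young mice Kcnj13 led with a median of 1148 RPKM (998 to 1361 over 12 libraries), above every other member in every library. Clic6 (median 580 RPKM, 514 to 599) and Atp1b1 (median 494 RPKM, 469 to 586) followed with overlapping ranges. Atp1b3 (median 276 RPKM, 253 to 330) overlapped with neither neighbour. Aqp1 (median 127 RPKM, 68.6 to 148) and Fxyd1 (median 107 RPKM, 62.0 to 137) overlapped each other, and Fxyd1 overlapped Atp1b2 (median 59.1 RPKM, 46.8 to 67.0). In the 16 aged libraries the order of medians was Fxyd1 (822), Kcnj13 (813), Clic6 (609), Atp1b1 (575), Aqp1 (312), Atp1b3 (201) and Atp1b2 (96.0), and every gene overlapped its neighbour in that order. The annotation used for counting is not named in these sources, and a gene counted over longer exons than this model would rank too high. The lengths used were 620 bases for Fxyd1 and 1270 bases for Kcnj13, the shortest of the 7, against 3758 bases for Clic6.

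Atp1b1 (chromosome 1, 164437099 to 164458355) encodes beta 1, the widespread beta subunit of the pump. In young day it stood at 1512, 1259, 1347 and 1460.4 CPM. The sleep-disrupted libraries had 1262, 1286, 1248 and 1209.5 CPM, and the night libraries 1464, 1245, 1263 and 1352 CPM. The 3 young groups overlapped. In aged wild-type mice Atp1b1 stood at 1695, 1477, 1533 and 1488 CPM by day and at 1306, 1025, 1451 and 1037 CPM at night. Every night library was below every day library. J20+ day libraries had 1242, 1624, 1266 and 1578 CPM, and J20+ night libraries 1659, 883, 1619 and 1594 CPM. The 883 CPM belong to J20+ night library 2, and the other 3 lay above every aged wild-type night library.

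Atp1b3 (chromosome 9, 96332655 to 96364431) encodes beta 3. It ran from 505 to 659 CPM over the 12 young libraries with all groups overlapping. Aged wild-type libraries had 440.2, 385, 413 and 416 CPM by day and 335, 204, 388 and 233 CPM at night, where 1 night library reached the lowest day library. J20+ day libraries had 287, 416, 379.6 and 431 CPM and J20+ night libraries 459.6, 159.6, 418 and 472 CPM. The lowest of the 16 aged libraries was J20+ night library 2.

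Atp1b2 (chromosome 11, 69599728 to 69605978) encodes beta 2, first known as a glial adhesion molecule and found in astrocytes as well as in this epithelium. It ran from 133 to 190.4 CPM in young mice, the lowest being young night library 4. Aged wild-type libraries had 316, 262, 269 and 279.6 CPM by day and 278, 270.2, 232 and 215 CPM at night. J20+ day libraries had 366, 310.2, 276 and 266 CPM and J20+ night libraries 276, 149, 291 and 232 CPM. The highest level, 366 CPM, came from J20+ day library 1, the J20+ day library with the lowest epithelial score.

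Per length, Atp1b1 made up most of the beta-subunit RNA in every group. Its share was 60.4% ± 1.5 (SD, n = 4) in young day and 60.4% ± 1.0 in young night. In aged mice the share was 66.2% ± 0.6 in wild-type day, 66.8% ± 0.9 in wild-type night, 64.9% ± 1.8 in J20+ day and 67.8% ± 2.9 in J20+ night. Atp1b3 gave 32.6% ± 2.1 in young day and 22.9% ± 0.6 in aged wild-type day, and Atp1b2 gave 6.9% ± 1.1 and 10.9% ± 0.3. Within each age, day and night libraries overlapped for the Atp1b1, Atp1b2 and Atp1b3 shares, while the step between the ages coincides with the change of batch and was not tested.

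**Figure D2:**
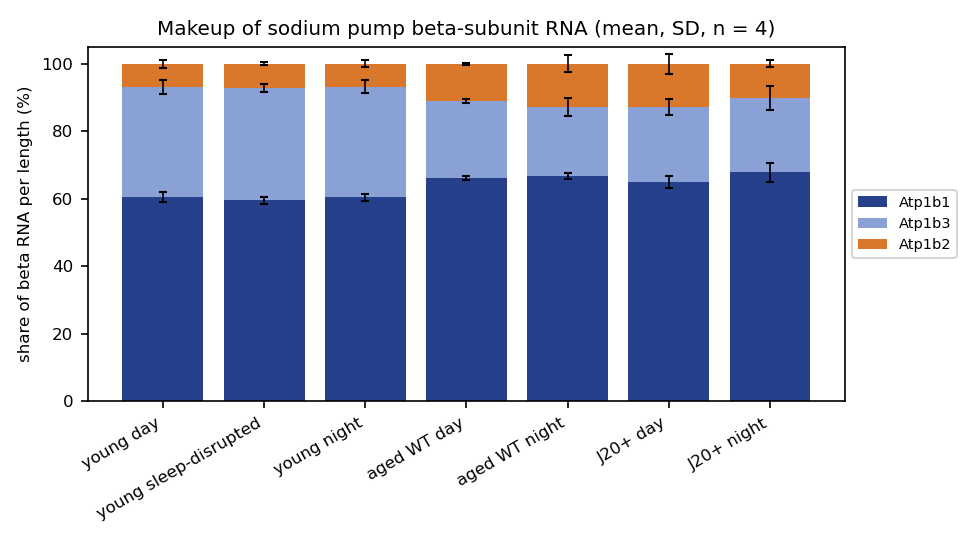
Share of sodium pump beta-subunit RNA per transcript length held by Atp1b1, Atp1b3 and Atp1b2 in each group (stacked bars, mean of 4 libraries, with the SD of each share at its upper edge). Atp1b1 holds about 60% in the young groups and between 64.9% and 67.8% in the aged groups.

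Fxyd1 (chromosome 7, 31051678 to 31055873) encodes phospholemman, a small membrane protein that binds the pump and lowers its sodium affinity until it is phosphorylated. In young day it stood at 48.8, 65.3, 39.9 and 41.5 CPM. Sleep-disrupted libraries had 47.1, 78.96, 67.8 and 84.8 CPM, and night libraries 84.8, 79.9, 71.5 and 38.4 CPM. In each of these other groups 3 libraries lay above the highest day library and 1 did not. Sleep-disrupted library 1 lay among the day libraries, and night library 4 lay below them all. Those low libraries, sleep-disrupted library 1 and night library 4, also had low counts of GC-rich genes. In them log2 counts fell by 0.21 and by 0.41 for every 10 percentage points of transcript GC, against the mean young library. The other 6 libraries of these groups had GC trends from 0.07 to 0.28, and the Fxyd1 transcript, at 58.1% GC, was the most GC-rich of the 7. Among the young day libraries 3 also had negative trends, from -0.37 to -0.11. Sleep-disrupted library 1 and night library 4 also had the highest neural scores of their groups, 3.26 and 3.21. In aged wild-type mice Fxyd1 stood at 538, 596, 587 and 414 CPM by day and at 529.8, 744, 769 and 806 CPM at night. Of the night libraries, 3 lay above all day libraries and 1 among them. The J20+ libraries had 321, 489, 321 and 392 CPM by day and, at night, 435, 885, 466 and 368 CPM. The highest of these was J20+ night library 2, which had the largest GC trend of the aged libraries (0.44). The part of GC content and of tissue makeup in these Fxyd1 levels was not tested beyond the corrections given below.

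Aqp1 (chromosome 6, 55336299 to 55348555) encodes aquaporin 1. Young day libraries had 364, 389, 334 and 268 CPM, sleep-disrupted libraries 290.5, 378, 333 and 381 CPM, and night libraries 360.1, 328, 271 and 180.2 CPM. The groups overlapped, and the lowest library was young night library 4. In aged wild-type mice Aqp1 stood at 919, 845, 680.1 and 1238 CPM by day and at 367, 198, 411 and 257 CPM at night. Every night library lay far below every day library. In J20+ mice Aqp1 stood at 503, 1022, 999 and 1321 CPM by day. At night it stood at 898, 139, 1038 and 794 CPM, so 3 of 4 lay within the range of the aged wild-type day libraries and library 2 lay below all other aged libraries.

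Kcnj13 (chromosome 1, 87384577 to 87394729) encodes Kir7.1, an inwardly rectifying potassium channel of the apical membrane. Young day libraries had 1729, 1389, 1677 and 1537 CPM, sleep-disrupted libraries 1459.6, 1461, 1456 and 1427 CPM, and night libraries 1594, 1340.2, 1372 and 1267 CPM. Aged wild-type libraries had 1061, 996, 1054 and 1148 CPM by day and 846, 847, 1108 and 775 CPM at night. Of the night libraries, 3 lay below every day library and 1 did not. J20+ day libraries had 654, 999, 903 and 1224 CPM and J20+ night libraries 1201, 1128, 1011 and 1199.6 CPM. Unlike Aqp1, Clic6, Atp1b1, Atp1b2 and Atp1b3, Kcnj13 was not low in J20+ night library 2, which had 1128 CPM.

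Clic6 (chromosome 16, 92498147 to 92541241) encodes a chloride intracellular channel protein that is abundant in this epithelium. It was the steadiest of the 7 in young mice, where 12 libraries ran from 1931 to 2253 CPM. In aged wild-type mice it stood at 2359, 2272, 1867 and 2839.6 CPM by day and at 1533, 1017, 1803 and 1133 CPM at night, with no overlap. J20+ day libraries had 1593, 2309, 2649 and 2929.6 CPM and J20+ night libraries 2719.6, 871, 2807 and 3019 CPM. The 2 low J20+ values came from day library 1 and night library 2, the libraries with the lowest epithelial scores of their groups.

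Young mice were compared first, to ask whether time of day or 6 hours of lost sleep moved these genes. None of the 7 genes passed the test between young night and young day (edgeR quasi-likelihood test, Benjamini-Hochberg over 14983 genes, threshold 0.05), where 0.267% of all genes passed. The largest difference was that of Fxyd1, with a log2 fold change of 0.49 ± 0.25 (SE; adjusted p = 0.571), followed by Aqp1 at -0.25 ± 0.19 (adjusted p = 0.677) and Kcnj13 at -0.18 ± 0.09 (adjusted p = 0.544). The pump subunits Atp1b1, Atp1b2 and Atp1b3 stood at -0.07 ± 0.08, -0.10 ± 0.10 and -0.05 ± 0.10, and Clic6 at -0.07 ± 0.06. Without young night library 4 the Aqp1 value was -0.08 ± 0.14 and the Fxyd1 value 0.69 ± 0.20 (adjusted p = 0.0978). With each library corrected for its trend over GC content, Fxyd1 stood at 0.27 ± 0.12 (adjusted p = 0.351) and Aqp1 at -0.39 ± 0.10 (adjusted p = 0.103). All 7 genes overlapped between the groups, and 4.69% of the genes tested did not.

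Sleep disruption gave the same picture against young day: none of the 7 genes passed, and neither did any of the 14983 genes (0%), of which 359 had an unadjusted p under 0.05. DESeq2 also called 0 genes there. Fxyd1 again had the largest log2 fold change, 0.51 ± 0.25 (adjusted p = 0.861), and Atp1b1 the next, -0.16 ± 0.08 (adjusted p = 0.861). Kcnj13 stood at -0.13 ± 0.09, Atp1b3 at -0.11 ± 0.10 and Atp1b2 at -0.05 ± 0.10, and Aqp1 (0.03 ± 0.19) and Clic6 (0.00 ± 0.06) were close to 0. Both young comparisons use the same day libraries, so the 2 Fxyd1 values are not independent. All 7 genes overlapped here too, and 1.97% of the genes tested did not. Between young night and sleep disruption, groups sampled 12 hours apart, none of the 7 genes passed while 0.38% of all genes did. Aqp1 had the largest value there, -0.28 ± 0.19 (adjusted p = 0.759), and Fxyd1 stood at -0.02 ± 0.25. The other 5 genes lay between -0.07 and 0.09. The groups overlapped for all 7 genes, and for all but 7.83% of the genes tested.

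Scaling to the 26 epithelial markers in place of all genes moved no member value in young mice by more than 0.03 log2 units. None of the 7 passed on that scale, where 0.187% of all genes passed for night against day, 0% for sleep disruption against day and 0.294% for night against sleep disruption. Relative to the epithelial score, 12 young libraries placed Clic6 from 1.67 to 1.83 log2 units above the marker mean, with an SD of 0.05. Fxyd1 ranged from -4.01 to -2.90 with an SD of 0.42 and Aqp1 from -1.68 to -0.64 with an SD of 0.28. The other 4 genes had SDs of 0.10 to 0.14. On this relative scale Atp1b1 was lower in every sleep-disrupted than in every day library, as were 1.1% of all genes (1.9% did not overlap in either direction). Clic6 was lower in every night than in every sleep-disrupted library, as were 3.51% (6.25% in either direction). That was nearly a tie, with the highest night library at 1.7631 and the lowest sleep-disrupted library at 1.7634. Between night and day all 7 overlapped on it, and 3.79% of genes did not.

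In aged wild-type mice 6 of the 7 genes had lower levels at night than by day and Fxyd1 a higher one, though 4 of the 6 changed sign when scaled to epithelial markers. Aqp1 had the largest log2 fold change, -1.58 ± 0.47 (SE; adjusted p = 0.144, 2.99-fold lower), followed by Clic6 at -0.77 ± 0.33 (adjusted p = 0.149, 1.70-fold lower). Atp1b3 stood at -0.51 ± 0.29 (adjusted p = 0.210), Atp1b1 at -0.36 ± 0.20 (adjusted p = 0.206), Kcnj13 at -0.25 ± 0.18 (adjusted p = 0.3001) and Atp1b2 at -0.18 ± 0.19 (adjusted p = 0.474). Fxyd1 stood at 0.42 ± 0.26 (adjusted p = 0.242), and at 0.08 ± 0.16 with the GC correction. None of the 7 passed in this fit over 16 aged libraries, in which 0.0124% of 16065 genes did, and Aqp1 and Clic6 were the 2 members with an unadjusted p under 0.05, as were 5002 of all genes. The median of the 7 log2 fold changes was -0.36, against 0.03 over all genes tested. Atp1b1, Aqp1 and Clic6 were lower without overlap in every night library, a pattern that 15.2% of all genes shared, and 26.1% of all genes did not overlap in either direction.

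J20+ night library 2 is not one of the libraries compared here, but it enters the shared estimate of spread. Without J20+ night library 2, Aqp1 fell at night with the same log2 fold change of -1.58 but an SE of 0.29 (adjusted p = 0.0130), Clic6 fell by 0.77 ± 0.22 (adjusted p = 0.0211) and Atp1b3 fell by 0.52 ± 0.19 (adjusted p = 0.0469). In that fit 33.4% of all genes passed, and those lower at night made up 17.5% of all genes. With J20+ day library 1 left out as well, Aqp1 (-1.58 ± 0.23, adjusted p = 0.00493), Clic6 (-0.77 ± 0.18, adjusted p = 0.00885), Atp1b3 (-0.51 ± 0.17, adjusted p = 0.0273) and Atp1b1 (-0.36 ± 0.13, adjusted p = 0.0417) fell, beside 44.4% of all genes (21.5% lower). A fit to the 8 aged wild-type libraries alone called Aqp1 (-1.57 ± 0.26, adjusted p = 0.0370) and Clic6 (-0.75 ± 0.21, adjusted p = 0.0397), where 26.2% of genes passed (12.6% lower). DESeq2 on all 16 libraries called Aqp1 alone among the 7 (-1.57 ± 0.44, adjusted p = 0.0214), where 8.65% of genes passed (4.56% lower).

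Most epithelial markers moved with these genes: 25 of 26 had lower values in aged wild-type night than day, with a median log2 fold change of -0.67, and none passed the test. The markers did not fall by the same amount. Ttr averaged 10220 ± 937 CPM (SD) by day and 9992 ± 656 CPM at night, so relative to the epithelial score its mean went from 3.49 to 4.16. All 14 neuronal markers had higher values at night, with a median of 3.04, as did all 9 oligodendrocyte markers (median 1.81) and 6 of 8 astrocyte markers (median 1.70), again with none past the test. The part of tissue makeup in the differences was not tested beyond the scaling that follows. Scaled to the epithelial markers, Aqp1 stood at -0.90 ± 0.28 (adjusted p = 0.0649), while Clic6 stood at -0.09 ± 0.13 (adjusted p = 0.555) and Atp1b3 at 0.14 ± 0.14 (adjusted p = 0.389). Atp1b1 changed sign to 0.31 ± 0.14 (adjusted p = 0.0892), Kcnj13 to 0.43 ± 0.22 (adjusted p = 0.115) and Atp1b2 to 0.53 ± 0.25 (adjusted p = 0.0915), and Fxyd1 stood at 1.11 ± 0.45 (adjusted p = 0.0748). This scaling moved the median of all genes to 0.73, and all members but Fxyd1 lay below that median. None of the 7 passed under this scaling, where 0.0249% of genes did. With the neural score as a covariate in the TMM fit, Aqp1 stood at -0.68 ± 0.44 (adjusted p = 0.914).

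Per library, Aqp1 stood at 0.00, -0.02, -0.24 and 0.22 log2 units from the epithelial score in aged wild-type day and at -0.66, -1.24, -0.80 and -0.97 in aged wild-type night. The groups did not overlap on this scale either, and 0.685% of all genes were lower at night without overlap when set against the same score. Subtracting the score removes only a change as large as that of the score. Aqp1 stood at -1.72 in J20+ night library 2 as well, where the score was 8.84. Whether Aqp1 fell at night beyond a steeper course against the score was not tested. Clic6 stood at 1.36, 1.41, 1.22 and 1.41 by day and at 1.40, 1.12, 1.34 and 1.17 at night, with overlap. Kcnj13 stood at 0.21, 0.22, 0.40 and 0.11 by day and at 0.54, 0.85, 0.63 and 0.63 at night, every night library above every day library. Fxyd1 stood at -0.77, -0.52, -0.45 and -1.37 by day and at -0.13, 0.67, 0.11 and 0.68 at night, also without overlap. Atp1b1 was the third gene that was higher without overlap on this scale, and 48.4% of all genes were (49.1% did not overlap in either direction).

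**Figure D3:**
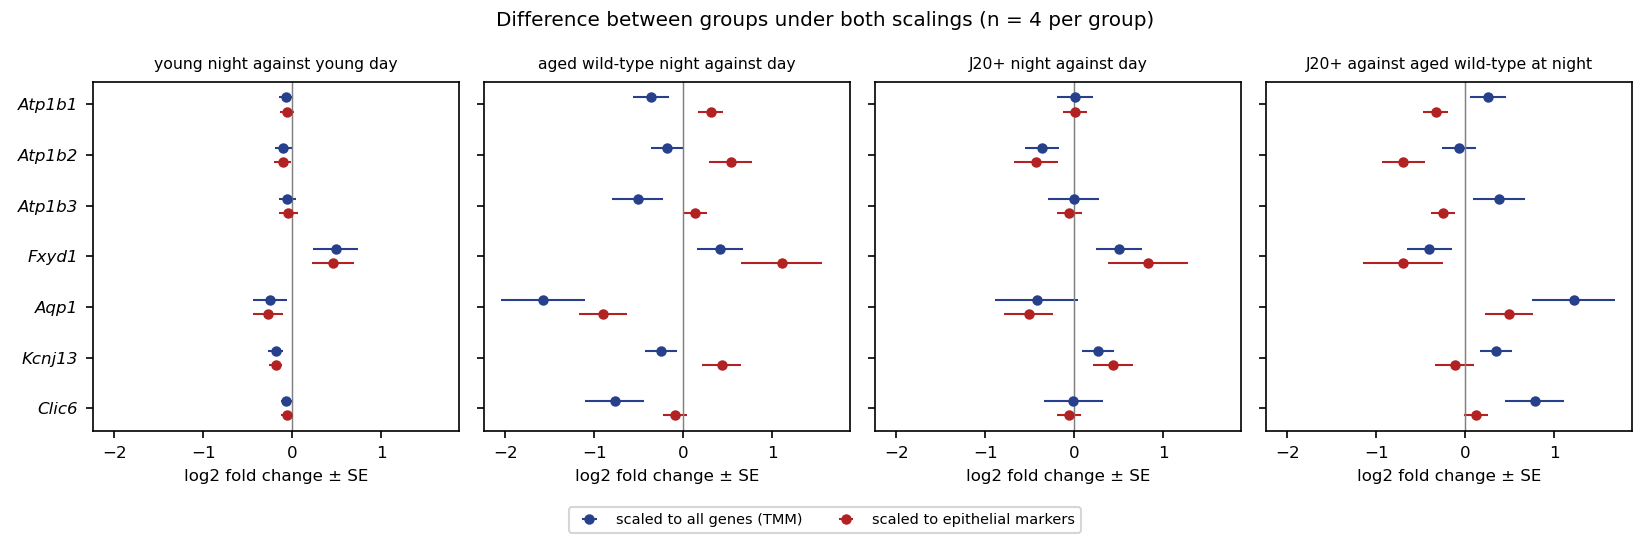
Log2 fold change of each gene with its SE in 4 comparisons, scaled to all genes (blue) and to 26 epithelial markers (red), 4 libraries per group. In aged wild-type night against day the blue points lie left of 0 for all genes but Fxyd1. On the red scale only Aqp1, at -0.90, and Clic6, at -0.09, lie left of 0.

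J20+ mice were compared between night and day in the same way, and none of the 7 genes passed, beside 0.0436% of all genes. Fxyd1 stood at 0.50 ± 0.26 (adjusted p = 0.652), Aqp1 at -0.42 ± 0.46 (adjusted p = 0.865), Atp1b2 at -0.36 ± 0.19 (adjusted p = 0.652) and Kcnj13 at 0.26 ± 0.18 (adjusted p = 0.677). Atp1b1, Atp1b3 and Clic6 stood within 0.02 log2 units of 0. The groups overlapped for all 7 genes, and 3.61% of all genes did not overlap (1.08% relative to the epithelial score, where the 7 overlapped too). With epithelial scaling none of the 7 passed, beside 0.0187% of genes. Without night library 2, Aqp1 stood at -0.08 ± 0.31, Fxyd1 at 0.16 ± 0.19, Clic6 at 0.27 ± 0.23 and Atp1b3 at 0.25 ± 0.20. No member passed in that fit, where 0.0307% of genes did, nor with J20+ day library 1 also left out (0.031%).

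Genotypes were compared next within each time of day. By day none of the 7 genes passed between J20+ and aged wild-type mice, nor did any gene (0%), of which 300 had an unadjusted p under 0.05. DESeq2 called 0 genes there. Fxyd1 had the largest log2 fold change at -0.49 ± 0.26 (adjusted p = 0.989), and 3 of 4 J20+ day libraries lay below all wild-type day libraries. Aqp1 (0.06 ± 0.46), Clic6 (0.02 ± 0.33) and the beta subunits (-0.13 to 0.11) differed by less than their SE, as did Kcnj13 (-0.17 ± 0.18). All 7 genes overlapped, and 1.36% of genes did not (0.772% relative to the epithelial score, where the 7 overlapped too). At night none of the 7 passed, beside 0.00622% of all genes. Aqp1 stood at 1.22 ± 0.47 (adjusted p = 0.108), Clic6 at 0.78 ± 0.33 (adjusted p = 0.128), Atp1b3 at 0.38 ± 0.29 (adjusted p = 0.360), Kcnj13 at 0.34 ± 0.18 (adjusted p = 0.192), Atp1b1 at 0.26 ± 0.20 (adjusted p = 0.376) and Fxyd1 at -0.40 ± 0.26 (adjusted p = 0.277). Atp1b2 stood at -0.07 ± 0.19. In 3 of 4 J20+ night libraries Aqp1, Clic6, Atp1b1 and Atp1b3 lay above every wild-type night library, and library 2 lay below every one of them. So all 7 genes overlapped, while 7.15% of genes did not.

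The cell-type markers moved with this comparison as well, with none past the test in the fit to all 16 libraries. Of the epithelial markers 21 of 26 had higher values in J20+ night (median 0.67), while all 14 neuronal markers (median -2.72), all 9 oligodendrocyte markers (median -2.91) and 6 of 8 astrocyte markers (median -1.72) had lower ones. With the neural score as a covariate Aqp1 stood at 0.14 ± 0.48 (adjusted p = 0.986) and Fxyd1 at -0.16 ± 0.28 (adjusted p = 0.973), and none of the 7 passed.

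Without J20+ night library 2, 5 of the 7 genes passed at night, where 57.7% of all genes did (29.6% higher and 28.1% lower). Aqp1 was higher in J20+ by 1.57 ± 0.31 (adjusted p = 0.00193), Clic6 by 1.06 ± 0.23 (adjusted p = 0.00267), Atp1b3 by 0.64 ± 0.20 (adjusted p = 0.0153) and Atp1b1 by 0.44 ± 0.15 (adjusted p = 0.0235). Fxyd1 was lower in J20+, at -0.74 ± 0.19 (adjusted p = 0.00650). In this fit the remaining J20+ night libraries had epithelial scores of 9.94 to 10.05, and the wild-type night libraries 8.87 to 9.48. Their neural scores were 1.74 to 3.61 and 4.38 to 7.06, so genotype and tissue makeup cannot be told apart in it. Neither epithelial scaling nor the neural covariate was run without this library. With J20+ day library 1 also left out, the same 5 genes passed, beside 62.9% of all genes (31.2% higher and 31.7% lower). DESeq2 on all libraries called Aqp1 alone (1.18 ± 0.44, adjusted p = 0.0455), where 18.7% of genes passed (12.6% higher). With epithelial scaling on all 16 libraries Aqp1 stood at 0.49 ± 0.27 (adjusted p = 0.272), Clic6 at 0.12 ± 0.13 (adjusted p = 0.529) and Atp1b2 at -0.70 ± 0.25 (adjusted p = 0.170). The median of all genes on that scale was -0.46, and edgeR called no gene (0%), with 3583 under an unadjusted p of 0.05. Relative to the epithelial score, Atp1b1 and Atp1b2 were lower in every J20+ night than in every wild-type night library, as were 5.1% of all genes (5.66% in either direction). For Atp1b2 this was nearly a tie, with the highest J20+ night library at -1.623 and the lowest wild-type night library at -1.621.

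The difference between the genotypes in their step from day to night was tested as an interaction. None of the 7 genes passed and no gene did (0%), with 1992 genes under an unadjusted p of 0.05, while DESeq2 called 9 genes and none of the 7. Aqp1 stood at 1.16 ± 0.66 (adjusted p = 0.452), Clic6 at 0.76 ± 0.47 (adjusted p = 0.472) and Kcnj13 at 0.52 ± 0.25 (adjusted p = 0.415). Atp1b3 stood at 0.51 ± 0.41, Atp1b1 at 0.37 ± 0.28, Fxyd1 at 0.08 ± 0.36 and Atp1b2 at -0.18 ± 0.26. All 26 epithelial markers had positive values (median 0.73) and all 14 neuronal markers negative ones (median -3.66), with none past the test. With the neural score as a covariate the Aqp1 value was 0.04 ± 0.61 and none of the 7 passed. Without J20+ night library 2, Aqp1 (1.51 ± 0.42, adjusted p = 0.0422) and Clic6 (1.04 ± 0.31, adjusted p = 0.0422) passed, beside 20.9% of all genes (11.2% positive). With J20+ day library 1 left out as well, neither passed (Aqp1 1.29 ± 0.35, adjusted p = 0.0708, and Clic6 0.88 ± 0.28, adjusted p = 0.0719), nor did any gene (0%), with 5657 under an unadjusted p of 0.05. With epithelial scaling on all 16 libraries the Aqp1 value was 0.39 ± 0.39 and the Clic6 value 0.03 ± 0.19.

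The spread left in each gene after subtracting the epithelial score differed among the 7. That spread is small only for a gene that changes by as much as the score. A gene that changes more steeply than the score, or against it, keeps a wide spread even if it follows the score closely. Over the 16 aged libraries the SD of Clic6 fell from 0.58 on the log2 CPM scale to 0.17 once the epithelial score of the same library was subtracted, and that of Atp1b3 fell from 0.46 to 0.19. Aqp1 went from 0.99 to 0.58 and Atp1b1 from 0.28 to 0.23. For Kcnj13 the SD rose from 0.26 to 0.35, for Atp1b2 from 0.29 to 0.41 and for Fxyd1 from 0.46 to 0.82. Without J20+ night library 2 the order was the same at the ends, with 0.13 for Clic6 and 0.73 for Fxyd1, and Kcnj13 stood at 0.26 on both scales. In J20+ night library 2, with the lowest epithelial score, Aqp1 stood 1.72 log2 units below the score and Kcnj13 1.30 above it, against -0.31 to -0.03 and -0.06 to 0.29 in the other 3 libraries of that group.

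**Figure D4:**
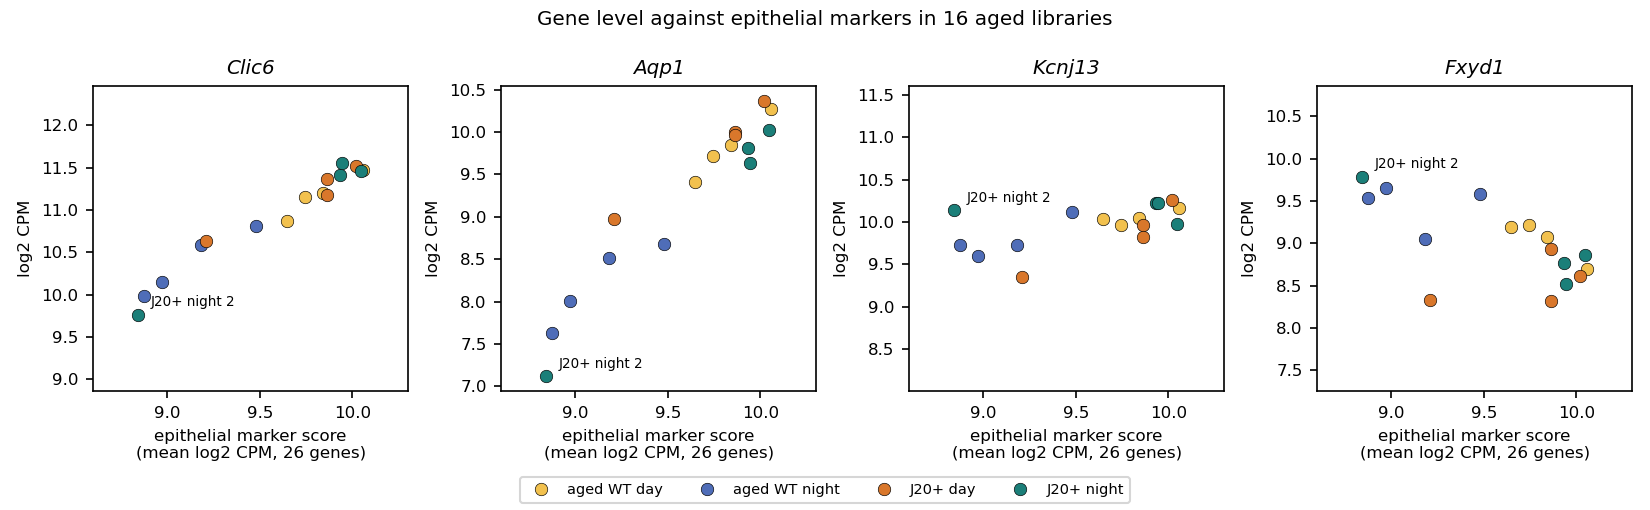
Log2 CPM of Clic6, Aqp1, Kcnj13 and Fxyd1 against the epithelial marker score in 16 aged libraries, coloured by group, Clic6 rises with the score, Aqp1 rises more steeply from 7.12 in J20+ night library 2, Kcnj13 stays between 9.35 and 10.26, and Fxyd1 reaches its highest value, 9.79, in J20+ night library 2.

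Other genes of the same kinds were counted from lists. Of 18 other pump genes (other subunits, FXYD proteins and relatives), 9 were tested in young and 10 in aged mice. Of 11 other aquaporins 4 and 3 were tested, of 25 other potassium channel genes 14 and 18, and of 21 other chloride channel genes 19 and 19. None of them passed in any of the 8 comparisons, in either direction. In aged wild-type night against day 8 of 10 pump genes and 14 of 18 potassium channel genes had higher values (medians 1.06 and 2.05), while 14 of 19 chloride channel genes had lower ones (median -0.35, but 0.34 when scaled to epithelial markers).

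Aqp4, the water channel of astrocytes and ependyma, had the next highest mean after Aqp1 over all 28 libraries, although Aqp11 had the higher mean in aged wild-type day and in J20+ night. Aqp4 averaged 14.2 ± 11.5 CPM in aged wild-type day and 53.5 ± 36.0 CPM in aged wild-type night (1.91 ± 1.05, adjusted p = 0.203), and 1 J20+ day library reached 251 CPM. Aqp11 stayed between 7.29 and 21.3 CPM in the aged libraries. Kcne2, a potassium channel beta subunit of the apical membrane, and Kcnk1 led the other potassium channel genes. Kcne2 averaged 818 ± 99.8 CPM by day and 559.8 ± 210.4 CPM at night in aged wild-type mice (-0.55 ± 0.31, adjusted p = 0.214), and Kcnk1 374 ± 41.5 and 283 ± 80.3 CPM (-0.40 ± 0.25, adjusted p = 0.248). Vdac1, the mitochondrial outer membrane pore, and Clcn3, an endosomal chloride exchanger, led the other chloride channel genes, at -0.35 ± 0.23 and -0.50 ± 0.29.

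Genes whose levels went most nearly with each member were ranked by the mean of Pearson's r of log2 CPM over the 12 young and the 16 aged libraries, among 11142 genes. This is a description over libraries that share their depth, makeup and GC trend, with no test. Clic6 was most like Cldn2 (mean r 0.95), a claudin of the choroid epithelium and itself 1 of the 26 markers. Aqp1 was most like Pcca, Hadha and Isca1 (0.96 to 0.97), genes of mitochondrial metabolism. Fxyd1 was most like Ndufa13 (0.98), a subunit of respiratory complex I, and Grina (0.97). Atp1b3 was most like Tmed2, Lamp2 and Atp6ap2 (0.96 to 0.97), and Atp1b1 like Gla, Stt3a and Ppt1 (all 0.90), genes of the secretory and lysosomal compartments. Kcnj13 (Lipa, Slc28a3 and Cd59a, 0.79 to 0.81) and Atp1b2 (Pgap4, Pcdhgc4 and Gabarapl1, 0.82 to 0.84) had no neighbour as close.

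Of the members, 2 share exon sequence with a gene on the opposite strand: Atp1b1 with Nme7 over 575 bases and Kcnj13 with Gigyf2 over 623 bases. The libraries were stranded, but whether strand was used in counting is not stated, so reads of these stretches may include the other gene.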

How the data were processed

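The values used are the read counts the authors deposited for each Entrez identifier, not normalized, in separate tables for the 12 young and the 16 aged libraries. Per the labels' protocols the libraries were poly(A)-selected and stranded (TruSeq Stranded mRNA). The submitters' processing notes list, with no order, HISAT2 2.2.1 and featureCounts 2.0.1 beside cutadapt, Picard 2.18.2, FastQC 0.11.8, DESeq2 and the genome build mm10. The annotation and the strand setting are not given here. Each library is 1 mouse, and replicate numbers only name libraries, in record order.

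Of 27179 identifiers 25275 (93.0%) matched a symbol in RefSeq's table of GRCm38.p6, which also gave gene positions. Genes were kept by filterByExpr and scaled by TMM. Tests were edgeR 4.0.16 quasi-likelihood fits (R 4.3.3), 1 for the 12 young and 1 for the 16 aged libraries, with Benjamini-Hochberg adjustment over all genes tested and a threshold of 0.05. Each edgeR SE was derived from the fold change and its F statistic, while SEs printed for DESeq2 are those of its own model. Alternatives were DESeq2 1.42.0, RLE (relative log expression) size factors, no filter, only the compared groups, the neural score as covariate, epithelial marker scaling and leaving out each library. A GC correction (loess, span 0.3) and leaving out 2 J20+ libraries together were chosen after seeing the data. Depth was 14632089 to 43885898 counts per library, so counting error is small for these genes and the spread between libraries sets the precision. With 1 library per mouse, differences between mice, in tissue makeup and in library preparation cannot be told apart. On simulated counts with 200 changed genes, the fit recovered 53% of 1.5-fold and 94% of 2-fold changes for young night against day (14871 genes), and 3% and 26% for aged wild-type night against day (15903 genes).

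The members, marker lists and gene lists were chosen with earlier results of these data known, and 192 of 193 listed symbols matched. All 7 members were tested in every comparison. For each other list, genes that passed or else its 2 most abundant genes are named, and some of these and of the genes most like a member are not reported here. The marker lists other than epithelial and neural ones (ependyma, endothelium, mural cells, fibroblasts, macrophages and erythroid cells) gave no gene past the test.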

Additional observations from a re-analysis of the deposited data

Results flagged for a closer look

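Of 49 sets of 4 values (7 genes in 7 groups), 3 held a library whose gap to the nearest other exceeded Dixon's critical share of the range for 4 samples, and chance gives about 1 such set in 20. In J20+ night, library 2 had 883 CPM of Atp1b1 against 1594 to 1659 in the other 3, and 871 CPM of Clic6 against 2719.6 to 3019. The same library had the lowest epithelial score of the aged libraries and a neural score of 5.25, and the part of these in its values was not tested. In young sleep disruption, library 4 had 1427 CPM of Kcnj13 against 1456 to 1461, a small step in a group with an SD of 16.2 CPM.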

How the results depend on the processing

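Of the alternative values for the 7 genes, 23 passed the threshold in addition and 17 changed sign. The other 1192 stayed on their side of the threshold and either kept their sign or lay, with the value they are set against, within 1 SE of 0, where a change of sign was not counted. Sign changes under epithelial scaling were, for aged wild-type night against day, Atp1b1 0.31, Atp1b2 0.53, Atp1b3 0.14 and Kcnj13 0.43. For J20+ against wild-type at night they were Atp1b1 -0.33, Atp1b3 -0.25 and Kcnj13 -0.12, and for the interaction Atp1b1 -0.30 and Atp1b3 -0.19. With the neural covariate, Atp1b3 (-0.11) and Clic6 (-0.015) changed sign for J20+ against wild-type at night and Clic6 (-0.067) in the interaction. With GC correction, Aqp1 (-0.11) and Clic6 (-0.069) did so for sleep disruption. Without J20+ night library 2, Atp1b3 (0.25) and Clic6 (0.27) did so for J20+ night against day, where leaving out each library in turn gave -0.18 to 0.25 and -0.17 to 0.27. Without that library and J20+ day library 1, Fxyd1 (-0.34) did so in the interaction. The causes were not tested.

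Counts of genes called moved most. For young night against day (40 genes) DESeq2 called 257, GC correction 139 and a fit to the compared groups 13, and leaving out 1 library gave 15 to 109. For young night against sleep disruption (57) these were 312, 223, 16 and 22 to 86. For aged wild-type night against day (2), DESeq2 called 1390 (1 member), the compared groups alone 4033 (2 members), the neural covariate 5, epithelial scaling 4, and the fit without both J20+ libraries 7155 (4 members), and leaving out 1 library gave 2 to 5449 (0 to 3 members). For J20+ night against day (7), RLE and GC correction gave 2, no filter 4, the neural covariate 11, epithelial scaling 3, the compared groups alone 1, DESeq2 79, and leaving out 1 library 2 to 5. For J20+ against wild-type at night (1), RLE, no filter, the neural covariate, epithelial scaling, GC correction and the compared groups alone gave 0, DESeq2 3001 (1 member), the fit without both J20+ libraries 10135 (5 members), and leaving out 1 library 0 to 9414 (0 to 5 members). For the interaction (0), DESeq2 gave 9 and leaving out 1 library 0 to 3409 (0 to 2 members). Leaving out 1 library gave 0 genes throughout for sleep disruption against day and for J20+ against wild-type by day, and 0 members for all young comparisons and for J20+ night against day. No paired analysis was possible because replicate numbers only name libraries and no label pairs mice across groups.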
